A study of Mus musculus with 4 samples.

Results

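The Slc7 amino acid transporters are described here, with the heavy chain Slc3a2 that many of them bind, in the injured cortex of mice. The group holds 10 genes of the 20832 that could be named on the array, and 11 probes of 39429, because Slc7a5 had 2. The genes were chosen by name as one family, and the family was chosen with the log ratios of these same arrays in view, that of Slc7a8 above all. The values of the 10 genes are therefore given as a description, with no p-value. The other gene lists were also chosen with earlier results of these data known. Adjusted p-values printed for their genes are therefore description as well, not independent support. On each of 4 2-colour arrays, RNA of the ipsilateral cortex from 1 mouse line labelled Ndrg2KO (in Cy3) was compared with that from wild type (in Cy5). Both groups were C57BL/6, 8 weeks of age, and both had undergone permanent middle cerebral artery occlusion, a model of ischaemic stroke, 24 h before; no uninjured cortex is among the samples used here. The kind of deletion in the Ndrg2KO line is not given in the sources used here, and separate animals are not named, so the spread between arrays may in part be technical.

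Slc7 proteins carry amino acids across the plasma membrane, most of them by exchanging one amino acid for another. One branch, the cationic transporters, works alone and brings arginine, lysine and ornithine into cells. The other branch consists of light chains that need a heavy chain, usually Slc3a2 (CD98), to reach the membrane; these exchange large neutral amino acids (Slc7a5 and Slc7a8, known as LAT1 and LAT2), small neutral amino acids and D-serine (Slc7a10), cationic for neutral amino acids (Slc7a6 and Slc7a7), or cystine for glutamate (Slc7a11, known as xCT). In brain, Slc7a5 is known for amino acid transport at the blood-brain barrier, and Slc7a11 for cystine supply to glutathione synthesis and for glutamate release.

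All signals are fluorescence intensities on a log2 scale, and each ratio is log2 of the knockout-labelled over the wild-type signal, so that 1 means a doubling. A probe is said to have passed when limma's adjusted p was under 0.05 over the 30259 probes tested. Among all of these, 20.9% passed, 9.28% as higher and 11.6% as lower in the knockout-labelled samples, and the median ratio was -0.01. Under median centring in place of loess, the 2808 higher and 3525 lower probes became 7877 and 15604, and the median ratio moved to -0.16. Log ratios correlated across probes at 0.72 between arrays 1 and 2 and at 0.63 between arrays 3 and 4, but at 0.41 to 0.47 between the other pairs. The dyes were never swapped, so genotype and dye cannot be told apart. The targeted gene, Ndrg2, read -0.22, -0.22, -0.18 and -0.11 on arrays 1 to 4, a fold of only 1.14 lower (limma adjusted p = 0.0245), and where its probe lies relative to the deletion is not given in the sources used here; its call was lost without replicate 1, 2 or 3 and at a normexp offset of 0, and the scanner software's own ratios gave -0.04 (limma adjusted p = 0.528). The samples are therefore called knockout-labelled throughout. As a check of the tissue, all 12 neuronal and all 12 astrocyte markers were above background, as were all 12 striatal markers. This shows presence alone. Striatal markers had median ratios of -0.35, -0.42, 0.16 and -0.06 on arrays 1 to 4. Oligodendrocyte markers had -0.09, -0.25, 0.17 and 0.34, so the paired samples may differ in tissue content. The part of tissue content in the values below was not tested.

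Sequences just before the transcription start are shown for the 3 family genes that the account turns on: Slc7a8, the highest, its near neighbour on chromosome 14, Slc7a7, the lowest and not one of the 10, and Slc7a11, the lowest of the 10. They come from RefSeq (GRCm38.p6), which held windows for 7 of the 10 genes, and each run gives the 250 bases before the start, 5′ to 3′ on the gene's own strand. Capitals mark matches to any of 4 motifs searched on both strands.
Slc7a8 (chr14:54781887-54782136, minus strand): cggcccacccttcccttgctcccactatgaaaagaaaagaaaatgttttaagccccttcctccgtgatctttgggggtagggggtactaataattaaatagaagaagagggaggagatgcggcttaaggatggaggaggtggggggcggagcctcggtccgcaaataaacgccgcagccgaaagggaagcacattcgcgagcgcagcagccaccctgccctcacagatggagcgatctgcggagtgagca
Slc7a7 (chr14:54417945-54418194, minus strand): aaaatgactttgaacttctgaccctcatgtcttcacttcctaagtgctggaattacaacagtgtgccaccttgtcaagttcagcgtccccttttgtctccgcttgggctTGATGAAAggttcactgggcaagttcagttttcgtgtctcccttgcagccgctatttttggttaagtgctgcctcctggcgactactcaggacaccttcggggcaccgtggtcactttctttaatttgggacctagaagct
Slc7a11 (chr3:50443614-50443863, minus strand): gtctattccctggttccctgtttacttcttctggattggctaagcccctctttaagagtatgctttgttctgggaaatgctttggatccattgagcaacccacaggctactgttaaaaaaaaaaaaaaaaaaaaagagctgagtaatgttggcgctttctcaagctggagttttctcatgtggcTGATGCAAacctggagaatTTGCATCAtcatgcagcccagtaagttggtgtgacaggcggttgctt

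The motifs were the amino acid response element core TGATGNAA, the antioxidant response element core TGACNNNGC, the E-box CACGTG and the hypoxia response element core ACGTG, which lies within the E-box. Of the 32851 windows of this length in the table, 3.45% held the first, 10.2% the antioxidant response element core, 6.02% the E-box and 16.6% the hypoxia response element core. The Slc7a11 window held the amino acid response element core at 2 places, facing each other, from position -66 on the gene's strand and from -47 on the opposite strand. The window of Slc7a7 shown, the most upstream of its 5, held 1 such match, from -141. The Slc7a8 window held none of the 4 motifs; of its bases, 55.6% were G or C, against 43.2% in Slc7a11 and a median of 52.4% over all windows, and it held 14 CG dinucleotides against 2 in Slc7a11 and a median of 6. A match describes these letters alone and is not evidence of binding.

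All 11 probes of the 10 genes were well above background in both channels on all 4 arrays. Of the 11, 2 passed as higher (Slc7a8 and 1 of the Slc7a5 probes), 2 as lower (Slc7a11 and the other Slc7a5 probe) and 7 did not pass; beside the 20.9% over all probes nothing is read from this count, since the family was chosen on the same contrast. The median of the 11 ratios was -0.01, and -0.02 without Slc7a8, close to the -0.01 over all probes. The median absolute ratio was 0.07 in the family and 0.09 over all probes. Apart from Slc7a8, the mean ratios of the 10 genes lay between -0.31 and 0.33. Under median centring, where 77.6% of all probes passed, 9 of the 11 probes did: Slc7a8 and Slc7a2 (0.31) as higher, and Slc7a1 (-0.37), Slc7a3 (-0.25), Slc7a10 (-0.33), Slc7a14 (-0.50), Slc3a2 (-0.42), Slc7a11 and Slc7a5 A_55_P2017972 as lower. Statements below that a member did not pass are for loess; under median centring they hold for Slc7a6 alone.

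**Figure D1:**
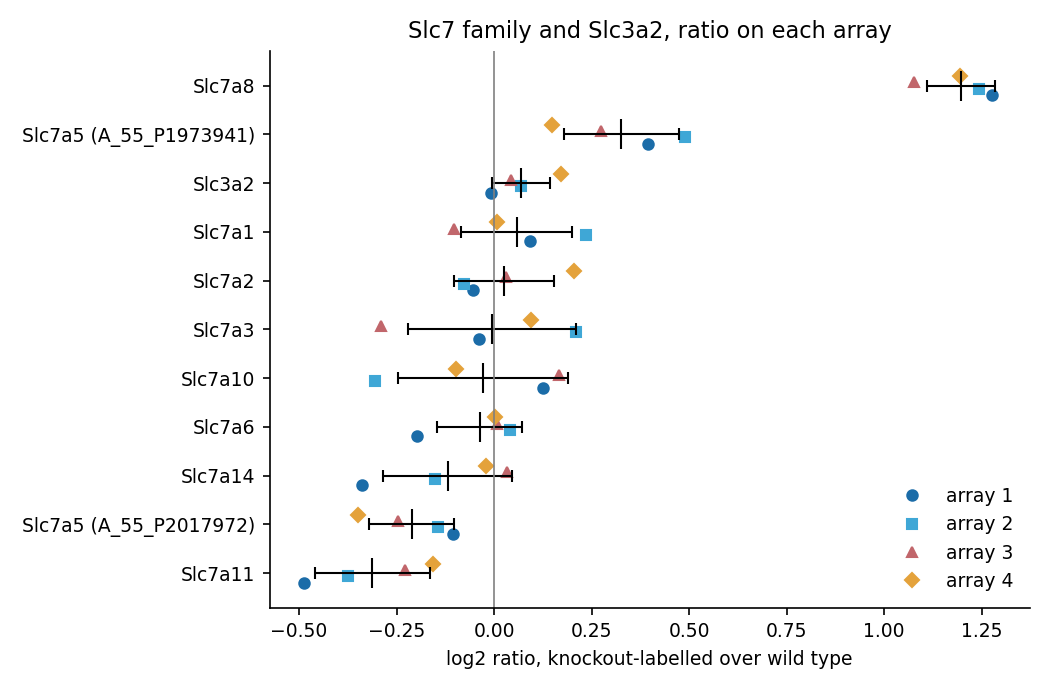
Plotted along the horizontal axis is the log2 ratio, knockout-labelled over wild type, of the 11 probes of the 10 genes, with 1 symbol per array and a black tick and bar for the mean ± SD of the 4 arrays. Slc7a8 stands between 1.08 and 1.28 on every array, whereas the other 10 probes lie between -0.49 and 0.49 and the 2 Slc7a5 probes fall on opposite sides of 0.

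Slc7a8, the exchanger of small and large neutral amino acids, was 2.29-fold higher in the knockout-labelled samples. Its level there was 11.70, 11.65, 11.50 and 11.65 on arrays 1 to 4, against 10.42, 10.41, 10.42 and 10.46 in wild type, on the log2 scale. The groups did not overlap: every knockout-labelled sample lay a full log2 unit above every wild-type sample. The 4 ratios were 1.28, 1.24, 1.08 and 1.19, a mean of 1.198 ± 0.087 (SD, n = 4). After normalization, levels had an SD of 0.02 in wild type and 0.09 in the knockout-labelled channel. The knockout-labelled SD was the larger for every member probe, as for Slc7a1 (0.13 against 0.03), so this is not particular to Slc7a8. Both channels were bright, at 50.4 to 60.9 times the local background in the knockout-labelled samples and 22.3 to 26 times in wild type. At a normexp offset of 50 with loess, 7 of all 30259 probes had a larger rise. This count depends on the processing. The gene Ldb3 read 1.02 here, but 1.34 at an offset of 0, where Slc7a8 read 1.24.

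**Figure D2:**
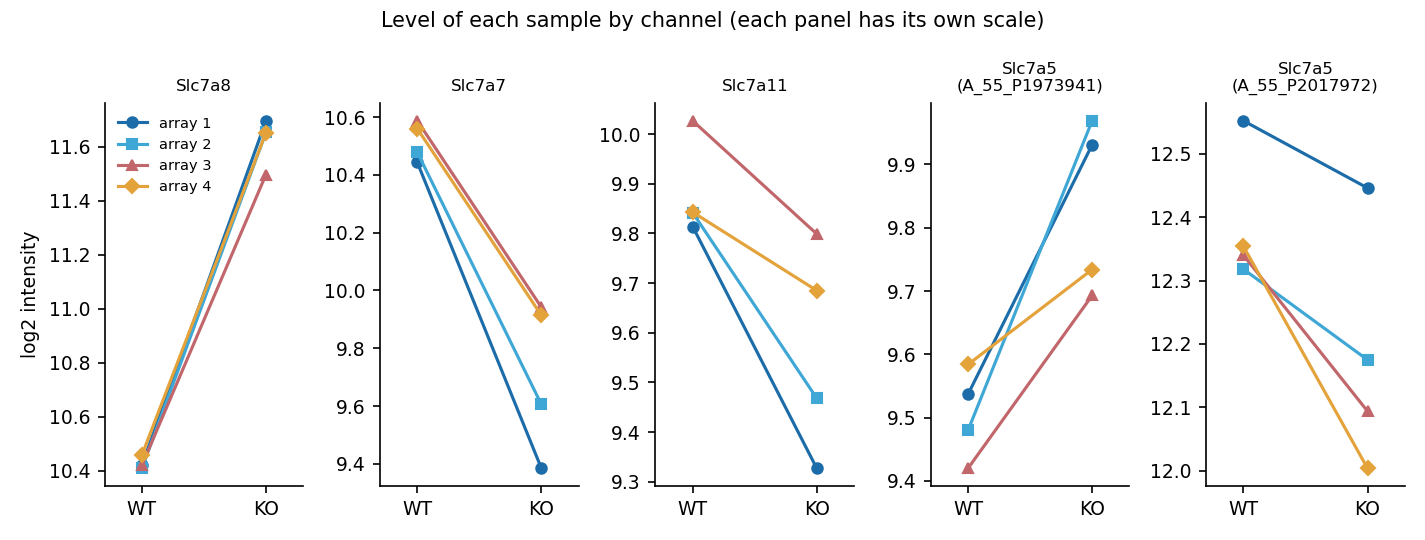
Log2 intensity (vertical axis) of the 4 wild-type (WT) and 4 knockout-labelled (KO) samples is plotted for Slc7a8, Slc7a7, Slc7a11 and the 2 Slc7a5 probes, with a line joining the pair of samples on each array; each panel has its own scale. Every line rises for Slc7a8 and for Slc7a5 probe A_55_P1973941, and every line falls in the other panels.

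The Slc7a8 probe was spotted at 10 places on each array, which gives its ratio an error within each array as well. On array 1 the spots ran from 1.15 to 1.34, on array 2 from 1.09 to 1.32 and on array 4 from 1.03 to 1.25. On array 3, 3 of the 10 spots had been marked as outliers by the scanner software and were left out, and the remaining 7 ran from 1.058 to 1.098. The left-out spots read 0.983, 1.096 and 1.035, and with them kept the mean over arrays was 1.195 (an alternative added after the data were seen). No single spot on any array came near 0. The mean SD between spots of an array was 0.054, and the SD between arrays was 0.087, so arrays differed by more than their spots did. Over the 335 tested probes with 10 spots the medians of these SDs were 0.051 and 0.084, and 0 of the others had a larger absolute ratio than Slc7a8.

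**Figure D3:**
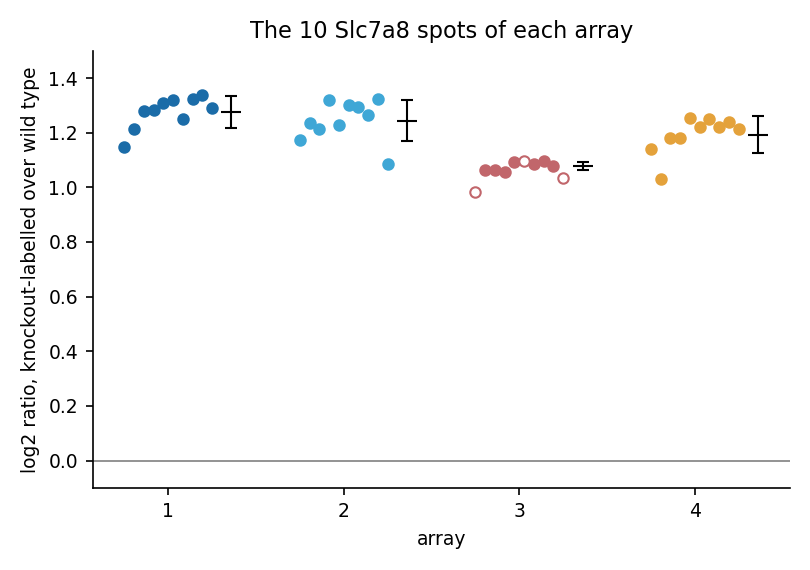
The log2 ratio of each of the 10 Slc7a8 spots (vertical axis) is plotted by array, in the order of the spots in the file, with filled circles for spots used, open circles for the 3 spots on array 3 marked as outliers, and black bars for the mean ± SD of the spots used. All spots lie between 0.98 and 1.34.

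Slc7a5, the main large neutral amino acid exchanger of the blood-brain barrier and the closest in substrates to Slc7a8, gave opposite readings from its 2 probes. Probe A_55_P1973941 read 9.93, 9.97, 9.69 and 9.73 in the knockout-labelled samples against 9.54, 9.48, 9.42 and 9.58 in wild type, a ratio of 0.33 ± 0.15 (SD, n = 4). These groups did not overlap, and the ratio was above 0 on all 4 arrays. Probe A_55_P2017972 read 12.45, 12.18, 12.09 and 12.00 against 12.55, 12.32, 12.34 and 12.35, a ratio of -0.21 ± 0.11 (SD, n = 4). Here the ratio was below 0 on all 4 arrays, although the groups overlapped because both samples of array 1 were bright. The probes carry the same RefSeq accession, so the data give no single direction for Slc7a5. The higher call was lost without replicate 1 or 2, and under median centring, where the ratio was 0.11. The lower call was lost whichever single replicate was left out. With all replicates in, it was also lost under the scanner software's own ratios and at a normexp offset of 0. Of 12 endothelial markers, 2 passed as lower and 0 as higher (16.7% in all), with a median of -0.13. Over all 17014 tested genes 21.6% passed, 8.87% as higher and 12.7% as lower. The summed level of a marker list, in kilounits of intensity, adds up the linear signal of the brightest probe of each gene. For endothelial markers it was 43.1 to 61.2 in the knockout-labelled samples and 52.4 to 61.7 in wild type. None of the 12 was below background everywhere, and their part in the Slc7a5 values was not tested. In whole tissue, fewer cells of a type and less RNA per cell cannot be told apart.

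Slc3a2, the heavy chain shared by Slc7a5, Slc7a8 and most of the exchangers, did not pass. Its level was 14.18, 14.33, 14.30 and 14.32 in the knockout-labelled samples and 14.18, 14.26, 14.26 and 14.15 in wild type, with overlapping groups. The ratio was 0.07 ± 0.07 (SD, n = 4), against 1.198 for its partner Slc7a8. Slc7a10, the carrier of small neutral amino acids and D-serine, read 0.12, -0.31, 0.17 and -0.10 on arrays 1 to 4, with a mean of -0.03 ± 0.22 (SD, n = 4). It was higher on 2 arrays and lower on the other two, among the widest spreads of the family.

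Slc7a11, the cystine and glutamate exchanger, was 1.24-fold lower. The knockout-labelled samples read 9.33, 9.47, 9.80 and 9.69 and the wild-type samples 9.81, 9.84, 10.03 and 9.84, a ratio of -0.31 ± 0.15 (SD, n = 4). No knockout-labelled sample reached the lowest wild-type sample, and the ratio was below 0 on all 4 arrays, at -0.49 and -0.37 on arrays 1 and 2 and at -0.23 and -0.16 on arrays 3 and 4. The groups thus did not overlap for 3 of the 11 probes, those of Slc7a8, Slc7a11 and Slc7a5 A_55_P1973941, where 19.5% of all probes did not overlap. Its call was lost without replicate 1 or 2 and under the scanner software's ratios. Of 12 astrocyte markers, 3 passed as lower, 0 as higher and 9 did not pass, with a median of -0.10. The share that passed, 25%, stands beside 21.6% of all tested genes. Their summed level was 206 to 231 kilounits against 252 to 268 in wild type. Aldoc (mean log2 intensity 16.80, ratio -0.39) weighed most in this sum. The next brightest, S100b (14.84, ratio -0.02), did not pass. Of 9 neutrophil and monocyte markers tested, 2 passed as lower and 7 did not pass. The 22.2% that passed stand beside 21.6% of all tested genes. Their median was -0.35 and -0.49 on arrays 1 and 2 and -0.12 and 0.04 on arrays 3 and 4. The summed level of the list was 47.3 to 58.2 against 61.3 to 71.4 in wild type. Csf3r (mean log2 intensity 15.56, ratio -0.25) made up most of this sum. The next brightest, S100a9 (11.91, ratio -0.54), did not pass, and Ngp was below background everywhere. The part of either cell type in the Slc7a11 values was not tested.

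The cationic transporters did not pass. Slc7a1, the widely expressed arginine and lysine carrier, read 0.09, 0.24, -0.10 and 0.01 (mean 0.06 ± 0.14, SD, n = 4). Slc7a2, the arginine carrier induced in activated macrophages, read -0.05, -0.08, 0.03 and 0.21 (mean 0.03 ± 0.13, SD, n = 4); it was the dimmest probe of the group against its local background, at 2.03 to 3.1 times that background in the knockout-labelled samples. Slc7a3, a further arginine and lysine carrier, read -0.04, 0.21, -0.29 and 0.10 (mean -0.01 ± 0.21, SD, n = 4). None of these held 1 sign on all 4 arrays. On array 3 both Slc7a3 samples stood about a log2 unit below the rest, at 9.05 in the knockout-labelled and 9.34 in the wild-type channel, against 10.27 to 10.48 in the other samples.

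Slc7a14, a lysosomal relative of the cationic transporters, read -0.34, -0.15, 0.03 and -0.02 (mean -0.12 ± 0.17, SD, n = 4) and did not pass. Its wild-type levels were nearly level, at 13.07 to 13.13, and its knockout-labelled levels ran from 12.76 to 13.10. Slc7a6, the exchanger that releases cationic for neutral amino acids, read -0.20, 0.04, 0.01 and 0.00 (mean -0.04 ± 0.11, SD, n = 4). Array 1 alone set its mean below 0.

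Of the other 7 Slc7 and heavy chain genes, 3 could be tested. Slc7a7, the partner of Slc3a2 that exchanges cationic for neutral amino acids and is known from kidney, gut and macrophages, gave a log2 ratio of -0.81 ± 0.20 (SD over 4 arrays), a 1.75-fold fall (limma adjusted p = 0.00184). Its knockout-labelled samples read 9.39, 9.61, 9.94 and 9.91 and its wild-type samples 10.44, 10.48, 10.59 and 10.56. The groups did not overlap, and the ratio was below 0 on 4 of 4 arrays, at -1.06, -0.87, -0.64 and -0.65. The fall was kept under all 14 alternatives, between -1.05 and -0.72. Of 12 microglial markers, 5 passed as lower and 0 as higher, with a median of -0.17. The share that passed was 41.7%, beside 21.6% of all tested genes. Their summed level was 119 to 130 kilounits against 135 to 148 in wild type. Siglech, the brightest (mean log2 intensity 15.62, ratio -0.27), weighed most in this sum. Of the markers that passed, Aif1 lost its call under 6 of the 14 alternatives and C1qc under 4. Cx3cr1 kept its call under all 14 by its brightest probe (-0.29), whereas its other probe read -0.09 and did not pass. None of the 12 was below background everywhere, and their part in the Slc7a7 fall was not tested. Slc7a4 (-0.06 ± 0.16, limma adjusted p = 0.557) and Slc3a1, the other heavy chain (0.08 ± 0.15, limma adjusted p = 0.370), did not pass. Slc7a9, Slc7a12, Slc7a13 and Slc7a15 were too dim on these arrays to be tested.

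Slc7a7 and Slc7a8 lie near each other on chromosome 14, the chromosome of Ndrg2, with 12 tested genes between them and 29 between Ndrg2 and Slc7a8. Of the 8 tested genes on each side of Slc7a8, 3 were higher, 4 lower and 9 did not pass. That is 43.8%, beside 31.7% of the 596 tested genes of chromosome 14 and 21.6% of all 17014 tested genes (8.87% higher, 12.7% lower). The higher genes were Acin1 (0.997 ± 0.111, with 0.54 by its dimmer probe), Ppp1r3e (0.52 ± 0.13) and Homez (0.20 ± 0.11, and -0.08 under median centring), each mean ± SD over 4 arrays. The size of the Ppp1r3e rise, from a dim probe (mean log2 intensity 6.87), depended on the processing. It was 0.95 at a normexp offset of 0 and 1.22 with the scanner software's ratios. The lower genes were Haus4 (-0.37 ± 0.13), Psmb5 (-0.20 ± 0.11), Prmt5 (-0.20 ± 0.05) and Bcl2l2 (-0.15 ± 0.03). Of these, Acin1, Ppp1r3e and Haus4 kept their calls under all 14 alternatives; Bcl2l2 lost its call without any single replicate, Homez without replicate 1, 2 or 3, Psmb5 without 1, 3 or 4 and Prmt5 without 1 or 2. Next to Slc7a8 on one side, Cebpe did not pass (-0.03 ± 0.13).

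**Figure D4:**
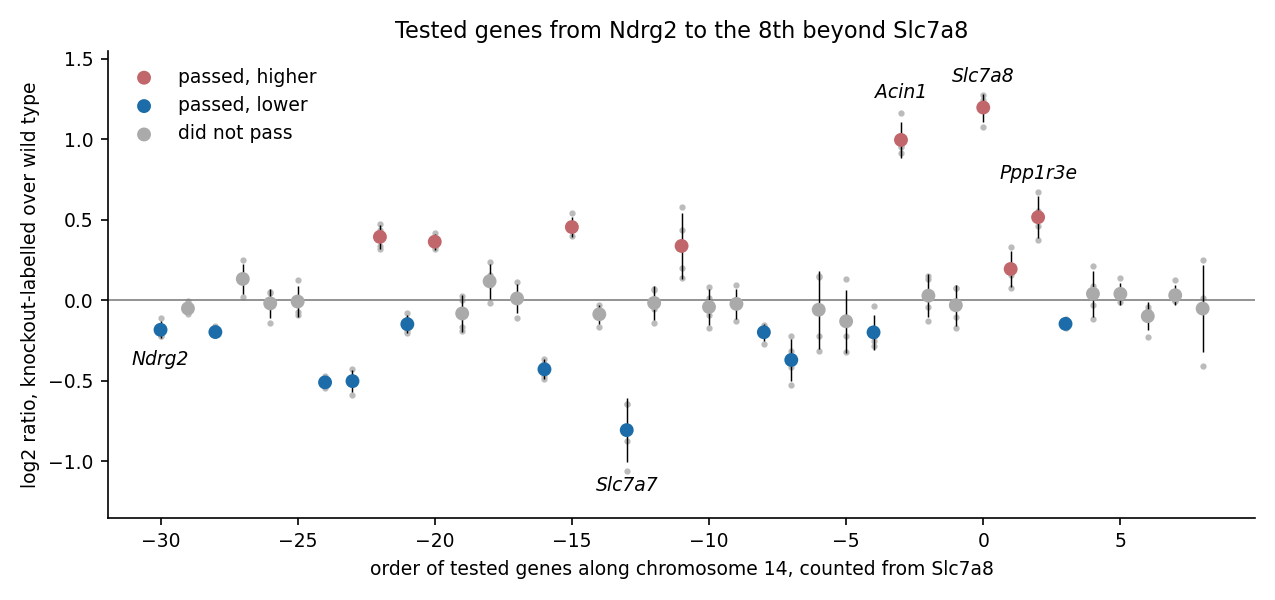
The mean log2 ratio ± SD of 4 arrays (vertical axis, with each array as a grey dot) is plotted for the 39 tested genes from Ndrg2 to the 8th beyond Slc7a8, by their order on chromosome 14 (horizontal axis), in red where higher, blue where lower and grey where the test was not passed. Of these, 8 were higher, 11 lower and 20 did not pass, and only Slc7a8, Acin1 and Slc7a7 passed with a change of at least 1.5-fold by the brightest probe of each gene.

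The genes whose 4 ratios lay nearest to those of Slc7a8, by Euclidean distance over the 4 arrays, were Gm3219 (distance 0.21, mean 1.27), Ldb3 (0.36, mean 1.02), Acin1 (0.48, mean 0.997), Plac9a (0.52, mean 0.97) and Celf3 (0.54, mean 0.96). The first 4 of these lie on chromosome 14 and Celf3 on chromosome 3.

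Among the other carriers of neutral amino acids, 2 of 26 tested genes rose, 3 fell and 21 did not pass. The share that passed was 19.2%, beside 21.6% of all tested genes. The median was 0.01, against -0.02 over all tested genes. Slc1a4, the alanine, serine and cysteine carrier, fell to a ratio of -0.56 ± 0.06 (SD over 4 arrays, limma adjusted p = 0.00134). Its knockout-labelled levels of 11.14, 11.23, 11.16 and 11.20 all lay below its wild-type levels of 11.66, 11.86, 11.67 and 11.76. Slc1a5, the glutamine carrier of the same subfamily, was lower by its brightest probe (-0.31 ± 0.19, limma adjusted p = 0.0260), a call lost without replicate 1, 2 or 3, whereas its other probe read -0.05. The other calls were small. Slc38a7 was lower (-0.16 ± 0.03, limma adjusted p = 0.0326, lost without any single replicate). Slc38a2 (0.23 ± 0.17, limma adjusted p = 0.0489) and Slc38a11 (0.14 ± 0.05, limma adjusted p = 0.0480) were higher, both close to the threshold of 0.05.

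Of the 11 carriers that take up glutamate, glycine, GABA or taurine, 4 were lower, 2 higher and 5 did not pass. The share that passed was 54.5%, beside 21.6% of all tested genes, and the median was -0.11. The betaine and GABA carrier Slc6a12 fell (-0.39 ± 0.10, limma adjusted p = 0.00488), as did the neuronal glutamate and cysteine carrier Slc1a1 (-0.32 ± 0.11, limma adjusted p = 0.00962), both on 4 of 4 arrays. The astrocyte glutamate carrier Slc1a2 was lower by 2 of its 3 probes (-0.30 and -0.46), the third reading -0.08. Slc1a6, a glutamate carrier best known from the cerebellum, was higher (0.29 ± 0.08, limma adjusted p = 0.00851), but read -0.01 under median centring.

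The amino acid response is the programme by which Atf4 induces transporters such as Slc7a11 and enzymes of serine and asparagine synthesis. Of 34 genes listed for it, 2 were higher, 5 lower and 27 did not pass, with a median of 0.02. The share that passed was 20.6%, beside 21.6% of all tested genes. Chac1, an Atf4 target that breaks down glutathione, was lower (-0.51 ± 0.26, limma adjusted p = 0.0114) on 4 of 4 arrays, a call lost with the scanner software's ratios (limma adjusted p = 0.0537). Atf4 itself was lower by its brightest probe (-0.34 ± 0.07, limma adjusted p = 0.00464), whereas its second probe read 0.03 ± 0.05. Psat1, an enzyme of serine synthesis, likewise split, at -0.24 ± 0.02 (limma adjusted p = 0.00918) and -0.003 ± 0.067. Cebpb and Mthfd2 were also lower, and the transfer RNA synthetases Gars and Nars higher.

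In the cystine, glutathione and Nrf2 list that surrounds Slc7a11, 1 of 21 genes was higher, 1 lower and 19 did not pass. The share that passed was 9.52%, beside 21.6% of all tested genes, and the median was -0.05. The gene that was higher was the lipid peroxidase Gpx4 (0.20 ± 0.04, limma adjusted p = 0.0175), which read -0.42 under median centring and lost its call without replicate 1 or 2; the lower was Slc1a1, given above. Gclm, a subunit of the enzyme that starts glutathione synthesis, did not pass (0.15 ± 0.09, limma adjusted p = 0.0610).

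Slc7a1, Slc7a2 and Slc7a3 carry arginine. Of 19 tested genes listed for arginine, nitric oxide and polyamines, 1 was higher, 2 lower and 16 did not pass. The share that passed was 15.8%, beside 21.6% of all tested genes, and the median was -0.05. Odc1, which makes the first polyamine from ornithine, was lower (-0.37 ± 0.26, limma adjusted p = 0.0297), at -0.60 and -0.58 on arrays 1 and 2 and at -0.18 and -0.11 on arrays 3 and 4, and its call was lost without replicate 1 or 2; its other probes, at -0.39 and -0.18, did not pass. Its inhibitor's antagonist Azin1 was higher (0.37 ± 0.27, limma adjusted p = 0.0313), lost without replicate 1 or 2 and at -0.02 under median centring; of its other probes, one read 0.23 and one -0.06, the latter not passing. The related Azin2 was lower by its brightest probe (-0.23 ± 0.03, limma adjusted p = 0.0105), its other probe reading 0.02. Arg1 had the largest mean ratio of the list but did not pass (-0.93 ± 0.90, limma adjusted p = 0.0577). It read -1.85, -1.49, -0.50 and 0.11 on arrays 1 to 4.

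Slc7a8 also carries thyroid hormone. Of 12 genes of thyroid hormone transport and response, 1 was higher, 1 lower and 10 did not pass. The share that passed was 16.7%, beside 21.6% of all tested genes, and the median was 0.02. Klf9, a hormone-induced transcription factor, was higher (0.34 ± 0.18, limma adjusted p = 0.0167), though lost without replicate 1 or 2 and at -0.12 under median centring. The hormone-induced corepressor Hr, also on chromosome 14, was lower (-0.24 ± 0.18, limma adjusted p = 0.0434), a call lost without replicate 1, 3 or 4. Ttr had the largest mean ratio of the list but did not pass (-0.64 ± 0.61, limma adjusted p = 0.0577). It read -0.74, -1.46, -0.09 and -0.27 on arrays 1 to 4.

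Amino acid sensing by mTORC1, the kinase complex that responds to leucine brought in by carriers such as Slc7a5, was covered by 25 genes. Of these, 3 were higher, 3 lower and 19 did not pass, with a median of 0.08. The share that passed was 24%, beside 21.6% of all tested genes. Eif4ebp1, the translation inhibitor that mTORC1 phosphorylates, fell (-0.30 ± 0.09, limma adjusted p = 0.00850), under all 14 alternatives. The mTORC1 inhibitor Tsc2 was higher (0.26 ± 0.09, limma adjusted p = 0.0137) and Flcn, which helps to activate the complex, lower (-0.24 ± 0.08, limma adjusted p = 0.0138); each lost its call without replicate 1. Mtor and Lamtor2 were also higher and Rheb lower.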

How the data were processed

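The members and gene lists were chosen with earlier results of these data known. Deposited signals of spots and local background are linear intensities; they came from Agilent Feature Extraction 11.0.1.1 per the file headers, or 10.7.3.1 per the submitters' processing notes. Per the file headers, the deposited log10 ratio is Cy5 over Cy3; the deposited series matrix holds log2 values of that direction, used sign-turned as an alternative. Per the file headers, spot flags (other values, 0 or 1) mark outliers and spots well above background. Median spot signals (no mean signal was in the files used) were corrected by normexp (offset 50) and loess in limma 3.58.1 (R 4.3.3); 136 to 181 outlier spots per array were left out. Probes well above background on at least 3 arrays in either channel were tested against 0 with lmFit and eBayes, Benjamini-Hochberg adjusted; channel levels followed Aquantile. The array is the block that pairs 2 samples of 1 replicate number, so the ratio holds it. Accessions were named through RefSeq genes (GRCm38.p6), which matched 27427 probes (69.6%); the array is annotated on another build, so gene order alone is used. Outside the members, the brightest probe stood for a gene. Named genes were all members and up to 3 genes of smallest p per list. Also named were Ndrg2 and every tested gene of the other Slc7 and heavy chain list. The 8 neighbours on each side of Slc7a8 and its 5 nearest patterns were named as well. Other list genes that passed, and Arg1, S100b and S100a9, are named after their values were seen. The number of arrays, 4, limits the precision. The fit was tested on simulated data with independent noise on each array. The simulation held neither the correlation between arrays nor the fixed dyes, so it does not gauge the calls made here.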

Additional observations from a re-analysis of the deposited data

Results flagged for a closer look

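Of 79 sets of 4 ratios checked, 4 had a sample far from the other three by Dixon's test at the 95% level, close to the 1 in 20 that chance gives. Slc7a6 read -0.198 on array 1 where the remaining arrays averaged 0.016. Acin1 read 1.161 on array 4 against 0.942. Efs, a further neighbour of Slc7a8, read -0.226 on array 1 against -0.055, and Il25 read 0.124 on array 4 against 0.001.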

How the results depend on the processing

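Slc7a8 stayed higher under all 14 alternatives, from 0.906 (median centring) to 1.273 (scanner software ratios), and from 1.172 to 1.238 without single arrays; Slc7a11 stayed below 0 throughout, from -0.535 to -0.253. Probes passing as higher and lower numbered 2808 and 3525; 7877 and 15604 under median centring; 1643 and 1748 with no replicate block, where the Slc7a11 and Slc7a5 lower calls were lost; 1061 to 1635 and 1352 to 2149 without single arrays. Lower probes numbered 2103 at offset 0, 2025 with the software's ratios and 2027 with the series matrix. With the software's ratios Ndrg2 (-0.043), Chac1, Slc1a5, Slc38a7, Odc1, Azin1, Klf9, Hr, Prmt5, Psmb5, Homez and Bcl2l2, among the genes named in the report outside the cell type markers, also lost their calls. The cause was not tested. Of the cell type markers, Csf3r lost its call under 6 of the 14 alternatives, Aldoc under 2, Olig2 under 7 and Mbp under 8. Under median centring the ratio changed sign for the members Slc7a1 (-0.366) and Slc3a2 (-0.417), and for Ajuba (0.149), 4931414P19Rik (0.285), 1700123O20Rik (-0.204), Cebpe (0.600), Homez (-0.082), Pabpn1 (-0.475), Slc22a17 (-0.651), Slc1a6 (-0.011), Gpx4 (-0.424), Gclm (-0.095), Azin1 (-0.019), Klf9 (-0.115), Nefm (-0.110), Olig2 (-0.088) and Mbp (-0.162). It also did so for Il25 with no background subtraction (-0.042) and, without single arrays, for Ajuba (-0.128 to 0.027), Cebpe (-0.066 to 0.017), Pabpn1 (-0.017 to 0.093), 1700123O20Rik (-0.010 to 0.081) and Cmtm5 (-0.151 to 0.069). Among members near 0, Slc7a1 (-0.001 to 0.112), Slc7a2 (-0.034 to 0.060), Slc7a3 (-0.078 to 0.089), Slc7a6 (-0.063 to 0.016) and Slc7a10 (-0.093 to 0.064) changed sign without single arrays, and Slc7a3 (0.095) and Slc7a6 (0.043) with the software's ratios. Signal over background limits Slc7a2 most.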
